A study of Mus musculus with 6 samples.

Results

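The 9 feedback genes of FGF signalling followed here through the cells of the mouse limb bud are Dusp6, Spry1, Spry2, Spry4, Spred1, Spred2, Il17rd, Etv4 and Etv5. They are 9 of the 16687 genes counted and were chosen by name, as genes that the kinase ERK induces downstream of FGF receptors and that act back on the same pathway. Limb buds had been taken at stage E11.5 and analysed by single-cell RNA-seq, with 1 library per group, to ask how rearrangements of the Lbx1/Fgf8 locus change expression in the limb. The hindlimb libraries came from C57BL/6 wild-type embryos (strain c57bl6.J in the labels), embryos homozygous for a tandem duplication that carries Lbx1, Btrc, Poll, Dpcd and Fbxw4 (Dup), G4 wild-type embryos and embryos homozygous for an inversion at the locus (Inv1). Forelimb libraries were made from G4 wild type and Inv1. G4 is a hybrid embryonic stem cell line of 129Sv and C57BL/6 background, and its embryos, wild type and Inv1, were derived from the stem cells by aggregation. The labels do not say whether the forelimbs and hindlimbs of a genotype came from the same embryos. Dup carries the strain label of the C57BL/6 wild type. Dup was therefore set against C57BL/6 wild type and Inv1 against G4 wild type. Each group had 1 library, and no test between groups was run. Every interval given with a value covers 95% and counting error only.

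In the limb bud, FGFs secreted by the apical ectodermal ridge (AER), the thickened epithelium at the distal rim, act on the underlying mesenchyme through FGF receptors, Ras and ERK and keep it growing. Dusp6 encodes a phosphatase that removes the activating phosphates from ERK in the cytoplasm, the Sprouty proteins (Spry1, Spry2, Spry4) and the Sprouty-related Spred proteins (Spred1, Spred2) restrain the step from receptor to Ras and Raf, and Il17rd, also called Sef, is a membrane protein that holds back the same cascade. Etv4 and Etv5 are ETS-family transcription factors that are switched on by FGF in distal limb mesenchyme and carry part of its transcriptional response.

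After removal of cells with 2000 detected genes or fewer, 24891 of 26486 cells remained, with 22660212 to 59403104 UMIs (counted molecules) per library and a median of 6729 to 10098 UMIs per cell. Cell classes are those deposited by the authors. The mesenchyme class held 2025 to 5384 cells per library and the muscle class 112 to 268, whereas the AER class held only 10 to 82 and the dorso-ventral ectoderm 11 to 95. Levels are given as CPM (counts-per-million), the UMIs of a gene scaled to all UMIs of its class in that library. The mesenchyme class carried a UMI of all 16 mesenchyme marker genes in every library, at a summed level of 2469 to 3678 CPM against 194 to 390 CPM in muscle. In the AER class the same markers summed to 409 CPM in the G4 hindlimb, the lowest library, and to 1514 CPM in the G4 forelimb, the highest. Endothelial markers summed to 1413 to 2132 CPM in the endothelial class and to at most 2.44 CPM in mesenchyme. In the AER class the 12 AER markers summed to 3823 to 11402 CPM, but 4 of its 16 C57BL/6 wild-type cells and 1 of its 25 Dup cells also carried 10 or more of the 16 mesenchyme markers. Fgf8, read in the AER class, was at 5453 CPM in C57BL/6 wild type, 3371 in Dup, 7315 in the G4 hindlimb and 2574 in the G4 forelimb. It was at 37.6 CPM in the Inv1 hindlimb and 10.3 CPM in the Inv1 forelimb. Any 2 libraries shared 3 to 14 cell barcodes.

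Sequence just upstream of the start site is given for 3 members, as reference for the results that follow: Dusp6 and Etv5, which were lower in the distal mesenchyme of all 3 mutant libraries, and Spry2, which was not. Each run holds the 250 bases before the RefSeq start site on build GRCm38.p6, written 5′ to 3′ on the strand of the gene, with capitals for the ETS core motif GGAA or its complement TTCC. The Dusp6 window lies at chr10:99262981-99263230 on the plus strand, that of Spry2 at chr14:105896820-105897069 on the minus strand and that of Etv5 at chr16:22438369-22438618 on the minus strand.
Dusp6: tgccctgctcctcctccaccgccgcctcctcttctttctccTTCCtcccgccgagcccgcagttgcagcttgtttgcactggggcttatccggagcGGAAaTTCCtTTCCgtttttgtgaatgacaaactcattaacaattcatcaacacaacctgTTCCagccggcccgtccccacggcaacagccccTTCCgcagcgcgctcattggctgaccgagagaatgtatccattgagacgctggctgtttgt
Etv5: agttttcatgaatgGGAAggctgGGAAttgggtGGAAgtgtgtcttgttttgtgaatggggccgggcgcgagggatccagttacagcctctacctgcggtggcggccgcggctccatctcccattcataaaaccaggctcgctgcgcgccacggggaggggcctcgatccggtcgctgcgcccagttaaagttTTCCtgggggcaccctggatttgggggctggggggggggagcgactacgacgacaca
Spry2: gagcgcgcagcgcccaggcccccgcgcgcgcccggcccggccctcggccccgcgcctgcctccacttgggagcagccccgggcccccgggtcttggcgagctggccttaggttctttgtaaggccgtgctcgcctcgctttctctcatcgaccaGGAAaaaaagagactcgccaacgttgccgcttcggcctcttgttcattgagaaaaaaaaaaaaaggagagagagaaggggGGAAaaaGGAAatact

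GGAA occurred 6 times in the Dusp6 window on both strands together, 4 times in the Etv5 window and 3 times in the Spry2 window. A second Etv5 start site, at chr16:22439571-22439820, held none. Spry1 had 1 match, Spred1 and Il17rd 4 each and Spred2 7. The motif is short: 93.4% of 32851 mouse start-site windows of this length held at least 1 match, with a median of 3, and 18% held 5 or more. The longer ETS motif CCGGAA, which contains GGAA, and the AP-1 motif TGAGTCA were found on either strand in 0 of the 8 windows of these genes, against 12% and 4.46% of all windows. RefSeq windows matched 7 of the 9 genes.

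The members did not share a pattern across cell classes, and the ectoderm and the mesenchyme divided them. In the mesenchyme, Dusp6 was at 78.8 CPM in C57BL/6 wild type, 58.1 in Dup, 79.5 and 62.0 in the G4 and Inv1 hindlimbs, and 105 and 73.7 in the G4 and Inv1 forelimbs. In the AER it lay between 12.9 and 36.1 CPM, on 1 to 24 UMIs, and in the dorso-ventral ectoderm between 29.3 and 67.7 CPM. The ratio of AER to mesenchyme was 0.131 to 0.583, with an interval below 1 in 6 of 6 libraries, and that of dorso-ventral ectoderm to mesenchyme was 0.479 to 0.646, below 1 by its interval in 5 of 6. In each library Dusp6 was thus lower in both ectodermal classes than in mesenchyme.

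Spry1 had the opposite order. It stood at 56 to 110.1 CPM in the AER and 58.0 to 109.5 CPM in the dorso-ventral ectoderm, against 17.2 to 27.1 CPM in the mesenchyme. The ratio to mesenchyme was 2.82 to 5.94 for the AER and 2.14 to 6.35 for the dorso-ventral ectoderm, with intervals above 1 in 6 of 6 libraries for each. Spry4 was 2.44 to 6.45 times the mesenchyme level in the dorso-ventral ectoderm, again above 1 by its interval in 6 of 6 libraries, but its ratio for the AER ran from 0.603 to 2.66 and was above 1 by its interval in 1. Etv4 was higher than in mesenchyme in both ectodermal classes, by 1.52 to 3.82 times in the AER and 1.24 to 3.94 times in the dorso-ventral ectoderm, with intervals above 1 in 5 of 6 libraries each. Etv5 ratios were above 1 in the dorso-ventral ectoderm of all 6 libraries but cleared 1 by their intervals in only 2. Il17rd resembled Dusp6, with dorso-ventral ectoderm at 0.117 to 0.633 of the mesenchyme level.

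Muscle cells and endothelium separated the Sprouty genes further. Dusp6, Spry2, Spry4, Spred1, Il17rd and Etv4 were lower in muscle than in mesenchyme in 6 of 6 libraries by their intervals; Dusp6 was at 0.202 to 0.501 of the mesenchyme level and Spry4 at 0.170 to 0.575. In the endothelial class, with 16 to 45 cells per library, Dusp6 was at 93.6 to 165 CPM, 1.18 to 2.02 times its mesenchyme level with intervals above 1 in 5 of 6 libraries. Spry4 was likewise higher there, by 2.32 to 3.43 times, in 5 of 6 libraries. Spry2 went the other way, at 12.8 to 32.4 CPM in endothelium against 63.5 to 92.2 CPM in mesenchyme, a ratio of 0.183 to 0.371 with intervals below 1 in 6 of 6. The mesenchyme values rest on 160 to 4490 UMIs per gene and library, those of the AER on 1 to 70.

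**Figure D1:**
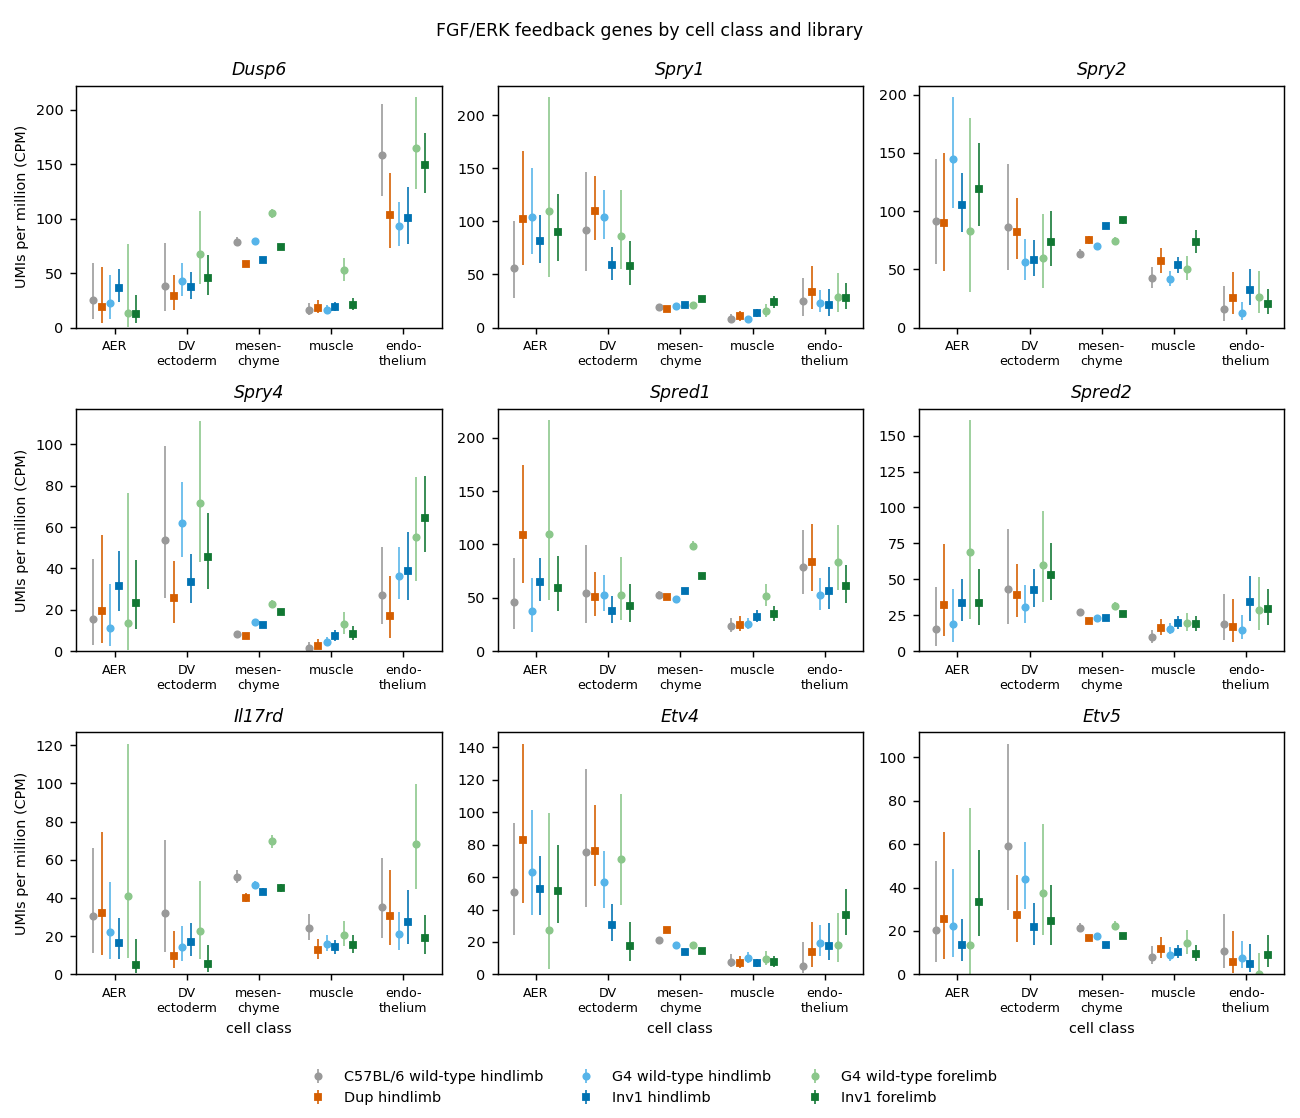
Levels of the 9 feedback genes (CPM, linear axis) in AER, dorso-ventral ectoderm, mesenchyme, muscle and endothelial cells, 1 point per library with its 95% counting interval. Dusp6 and Il17rd sit higher in mesenchyme than in ectoderm, and Spry1 and Etv4 the reverse; Spry1 lies at 17.2 to 27.1 CPM in mesenchyme and at 56 CPM or more in both ectodermal classes.

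Along the wild-type limb, most members were read at higher levels toward the distal end. The authors' finer classes divide the mesenchyme of the C57BL/6 pair into stylopod (upper limb segment), zeugopod (middle segment) and autopod (foot plate), 2 groups of chondrocyte progenitors, and muscle connective tissue. In C57BL/6 wild type, Spry4 was at 25.5 CPM in autopod mesenchyme, 3.76 in zeugopod and 4.31 in stylopod, an autopod to stylopod ratio of 5.92 (3.80 to 9.49). Dusp6 was at 102 CPM in autopod mesenchyme, 85.9 in zeugopod and 61.3 in stylopod, a ratio of autopod to stylopod of 1.66 (1.43 to 1.93). Etv4 and Etv5 were at 41.4 and 39.3 CPM in autopod mesenchyme against 19.1 and 18.3 CPM in stylopod mesenchyme, ratios of 2.16 and 2.14, and both were lowest in zeugopod mesenchyme, at 14.7 and 14.2 CPM. Spry1 and Spry2 had ratios of 2.84 and 2.11 and Il17rd one of 1.67. These classes were drawn by the authors from the expression of all genes, so the gradients describe them and are no independent result.

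In Dup the same gradients were flatter for Dusp6 and Etv5. Dusp6 was at 53.5 CPM in autopod mesenchyme of Dup and 53.4 CPM in its stylopod mesenchyme, a ratio of 1.00 (0.868 to 1.16). Etv5 was at 22.2 and 20.4 CPM, a ratio of 1.09 (0.864 to 1.38). Spry4 kept a higher autopod level, at 12.5 against 3.36 CPM, with a ratio of 3.71 (2.24 to 6.54), and so did Etv4, with 1.77 (1.45 to 2.17). A flat profile was therefore not shared by every member.

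**Figure D2:**
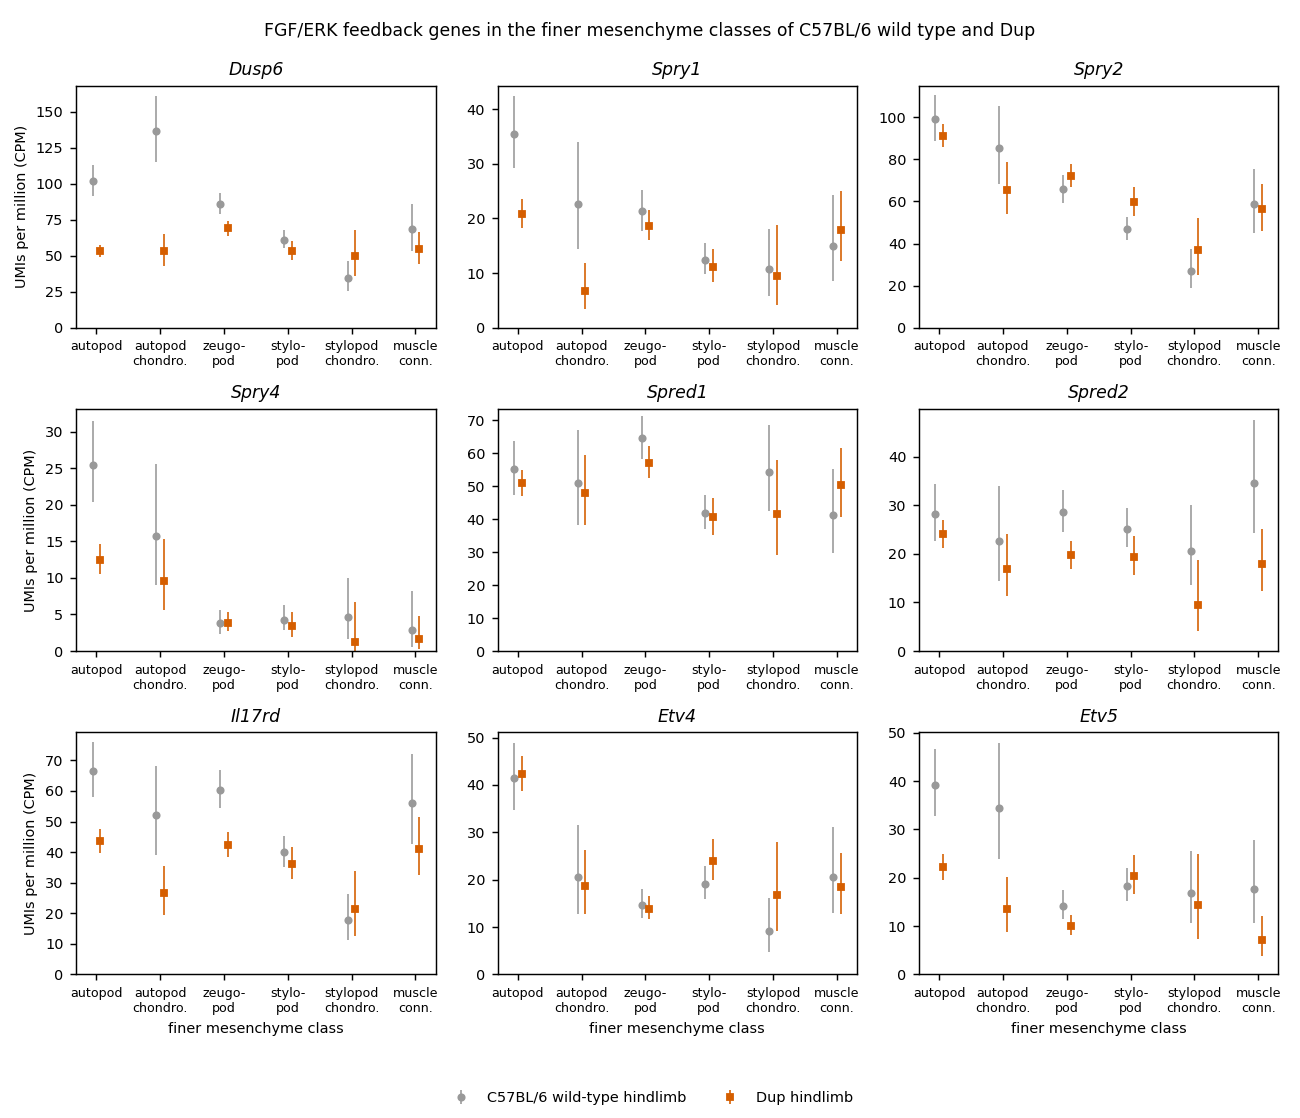
Levels of the 9 genes (CPM, linear axis) in the finer mesenchyme classes of the C57BL/6 wild-type and Dup hindlimbs, with 95% counting intervals. Wild-type and Dup points part for Dusp6, Spry1, Spry4, Etv5 and Il17rd in autopod mesenchyme (Dusp6, 102 against 53.5 CPM) and lie close together for Etv4 and Spry2.

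Read over the whole mesenchyme, the differences between mutant and wild type were modest and went in both directions. Dusp6 was lower in each mutant library than in its control, with ratios of 0.738 (0.688 to 0.791) for Dup, 0.779 (0.744 to 0.817) for the hindlimb of Inv1 and 0.703 (0.665 to 0.743) for its forelimb. The share of mesenchyme cells with a Dusp6 UMI, after thinning every cell to 4000 UMIs, was 24.6% in C57BL/6 wild type and 19.3% in Dup, 23.3% and 18.7% in the G4 and Inv1 hindlimbs, and 29.2% and 22% in the forelimbs. Before thinning it was 42.2%, 30.1%, 41.8%, 33.2%, 46.3% and 40.2% in the same order. In muscle, where Dusp6 was below its mesenchyme level in every library, the thinned share was 3.17% to 11.6%. The median there was 9760 to 16660 UMIs per cell against 6611 to 9807 in mesenchyme.

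Etv5 was also lower in all 3 mutant libraries. Its mesenchyme levels were 21.4 CPM in C57BL/6 wild type and 16.6 in Dup, 17.6 and 13.6 in the G4 and Inv1 hindlimbs, and 22.4 and 17.5 in the forelimbs. The 3 ratios, 0.774 (0.678 to 0.884), 0.771 (0.697 to 0.853) and 0.781 (0.695 to 0.879), were close to each other. Spry2 was higher in all 3, at 75.2 CPM in Dup against 63.5 in its control, 87.2 against 69.8 in the Inv1 hindlimb and 92.2 against 74.6 in the Inv1 forelimb. The ratios were 1.18 (1.10 to 1.27), 1.25 (1.20 to 1.31) and 1.24 (1.17 to 1.31). Over the whole mesenchyme, an inhibitor and a transcription factor of the same feedback group thus lay on opposite sides of the controls. In Dup this did not hold for distal cells. By finer class its Spry2 ratio was 0.919 in autopod, 1.10 in zeugopod and 1.27 in stylopod mesenchyme. Of these 3 intervals only that of the stylopod lay above 1. In cells with a UMI of Hoxa13 or Hoxd13, described below, the Spry2 ratio was 0.94 in Dup and 1.14 and 1.10 in the hindlimb and forelimb of Inv1.

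The other members did not keep 1 side across the pairs. Etv4 was higher in Dup, at 27.1 against 21.1 CPM, with a ratio of 1.29 (1.14 to 1.45). It was lower in Inv1, with 0.757 (0.686 to 0.836) in the hindlimb and 0.784 (0.688 to 0.894) in the forelimb. By finer class the Etv4 ratio of Dup was 1.02 (0.845 to 1.24) in autopod, 0.942 (0.715 to 1.25) in zeugopod and 1.25 (0.963 to 1.62) in stylopod mesenchyme. Spry1 ratios were 0.869, 1.06 and 1.30 for the Dup, Inv1 hindlimb and Inv1 forelimb pairs, and Spred1 ratios 0.960, 1.14 and 0.712 in the same order. Spry4 gave 0.862, 0.899 and 0.822, Spred2 0.772, 1.02 and 0.808, and Il17rd 0.787, 0.921 and 0.648. Among these, Spry4 and Il17rd had ratios below 1 in all 3 pairs; the Spry4 intervals reached 1 in both hindlimb pairs.

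A gene was called past the fold at 1.5 times or more in either direction, provided that it averaged at least 10 CPM in the pair (measured genes), and few members reached this in whole mesenchyme. In Dup the count was 0 of 8 measured members (Spry4 was below the limit), where 0.716% of all measured genes were higher and 1.95% lower. For the hindlimb of Inv1 it was 0 of 9, where 0.503% of genes were higher and 0.34% lower. For the forelimb of Inv1 1 of 9, Il17rd, was lower, where 0.417% of genes were higher and 9.23% lower. The median log2 ratio of all measured genes in that forelimb pair was -0.17. With median-of-ratios scaling, which removes such a shift, Il17rd was at 0.733 and 0 members were past the fold, while Dusp6 was at 0.795 and Spry2 at 1.40.

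Within the autopod mesenchyme of Dup the members differed more than in the mesenchyme as a whole. Autopod mesenchyme made up 34.5% of Dup mesenchyme cells (1468 cells) and 16.1% of wild-type mesenchyme cells (326 cells), so the class was more abundant in Dup. Dusp6 was at 53.5 CPM in Dup autopod mesenchyme against 102 CPM in wild type, a ratio of 0.525 (0.459 to 0.600). Spry4 was at 12.5 against 25.5 CPM, a ratio of 0.489 (0.372 to 0.647). The Dup level was about as far below its control for the phosphatase as for this Sprouty.

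Spry1 followed at 20.8 against 35.4 CPM, a ratio of 0.587 (0.469 to 0.737), and Il17rd at 43.5 against 66.5 CPM, a ratio of 0.654 (0.558 to 0.769). The ETS factor Etv5 was at 22.2 against 39.3 CPM, a ratio of 0.565 (0.456 to 0.702). Its relative Etv4 was at 42.3 against 41.4 CPM, a ratio of 1.02 (0.845 to 1.24), so the intervals of the 2 factors did not overlap. With a limit of 3000 detected genes the Etv5 ratio was 0.783, within the fold. Spry2 was at 91.2 against 99.2 CPM, a ratio of 0.919 (0.812 to 1.04), and Spred1 and Spred2 had ratios of 0.923 (0.781 to 1.09) and 0.852 (0.673 to 1.09). In all, 5 of 9 members were lower past the fold and 0 higher, where 2.87% of measured genes were lower and 0.746% higher.

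The autopod markers themselves were close between the libraries, with Hoxd13 at a ratio of 1.01 (0.935 to 1.08) and Hoxa13 at 0.883 (0.807 to 0.966) in autopod mesenchyme. The proximal marker Meis2 was at 5.02 CPM in Dup and 19.2 CPM in wild type, so the cells under this name were not identical in makeup. The immediate early genes Egr1 and Fos, which ERK also induces and which respond to cell dissociation, were higher in Dup autopod mesenchyme, Egr1 at 51.5 against 7.19 CPM and Fos at 140 against 49.2 CPM. Their part in the differences of the feedback genes was not tested.

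The autopod chondrocyte progenitors, with 272 Dup and 90 wild-type cells, had low values for the same genes. Dusp6 was at 53.1 against 137 CPM there, a ratio of 0.388 (0.296 to 0.508), and Etv5 at 13.6 against 34.4 CPM, a ratio of 0.394 (0.224 to 0.681). Spry1 had a ratio of 0.300 (0.136 to 0.627) and Il17rd one of 0.509 (0.336 to 0.769). In this class 5 of 9 members were lower past the fold and 0 higher, where 8.97% of measured genes were lower and 7.11% higher. In zeugopod mesenchyme the ratios were nearer to 1, at 0.803 (0.715 to 0.902) for Dusp6, 0.707 (0.523 to 0.957) for Etv5 and 0.702 (0.608 to 0.811) for Il17rd. In stylopod mesenchyme Dusp6 was at 0.871 (0.743 to 1.02), Etv5 at 1.11 (0.842 to 1.46) and Spry2 at 1.27 (1.08 to 1.5). Across these mesenchyme segments the ratio of Dup to wild type thus ran downward from stylopod to autopod for Dusp6 and Etv5. Low Etv5 was not confined to the autopod. In muscle connective tissue Etv5 was at 0.396 (0.180 to 0.845), on 13 and 19 UMIs, Spred2 at 0.516 (0.313 to 0.848) and Dusp6 at 0.800 (0.586 to 1.10). There 2 of 8 measured members were lower past the fold and 0 higher, where 11.6% of measured genes were lower and 3.87% higher.

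The finer classes were used for the C57BL/6 pair only. To read distal and proximal cells in the same way in all 6 libraries, mesenchyme cells were grouped by their own UMIs after thinning to 4000 UMIs: those with a UMI of Hoxa13 or Hoxd13, genes of the distal limb, and those with a UMI of Meis1 or Meis2, genes of the proximal limb, and none of Hoxa13 or Hoxd13. They are called Hox13-positive and Meis-positive cells, and this grouping was chosen after the data had been seen. Of the Hox13-positive cells, 47.6% in C57BL/6 wild type and 62.5% in Dup belonged to the deposited autopod mesenchyme class, with a further 13.0% and 11.8% in the autopod chondrocyte progenitors. Hox13-positive cells made up 24.3% of the mesenchyme in C57BL/6 wild type and 43.9% in Dup, 34.1% and 50.02% in the G4 and Inv1 hindlimbs, and 54.4% and 61.3% in the forelimbs. The share was larger in the mutant of each pair.

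Dusp6 in Hox13-positive cells was at 109 CPM in C57BL/6 wild type and 57.3 CPM in Dup, at 95.2 and 61.8 CPM in the G4 and Inv1 hindlimbs, and at 95.4 and 65.6 CPM in the forelimbs. All 3 wild-type libraries lay above all 3 mutant libraries, and the lowest wild-type level exceeded the highest mutant level. The ratios were 0.526 (0.471 to 0.587) for Dup, 0.649 (0.606 to 0.694) for the Inv1 hindlimb and 0.688 (0.638 to 0.741) for the Inv1 forelimb. The 2 wild-type hindlimbs, G4 against C57BL/6, had a ratio of 0.873 (0.793 to 0.963), and the G4 forelimb against its hindlimb one of 1.00 (0.932 to 1.08). By CPM alone, each mutant ratio thus lay farther from 1 than either wild-type ratio. The median log2 ratio of all measured genes in Hox13-positive cells was -0.09 for Dup, 0.04 for the Inv1 hindlimb and -0.17 for the Inv1 forelimb. In whole mesenchyme it was 0.33 for the G4 forelimb against its hindlimb, so the Dusp6 comparisons with forelimbs depend on scaling. The Hox13-positive cells differed in their proximal markers, with Meis2 at 73.0 CPM in C57BL/6 wild type and 17.5 in Dup, 8.08 and 6.06 in the G4 and Inv1 hindlimbs, and 3.79 and 2.47 in the forelimbs. The part of this makeup in the Dusp6 levels was not tested.

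Etv5 was also apart in level, by less than Dusp6. It was at 32.6, 25.9 and 23.6 CPM in the C57BL/6 hindlimb, G4 hindlimb and G4 forelimb, and at 20.9, 14.9 and 17.0 CPM in Dup, Inv1 hindlimb and Inv1 forelimb. Its ratios to the controls were 0.640 (0.527 to 0.780), 0.577 (0.505 to 0.660) and 0.720 (0.620 to 0.836), while the G4 to C57BL/6 hindlimb ratio was 0.794 (0.663 to 0.955). The gap between the lowest wild-type and the highest mutant level, 23.6 against 20.9 CPM, was small beside the spread among the wild types. With a limit of 3000 detected genes the Dup ratio of Etv5 was 0.851, within the fold, where that of Dusp6 was 0.490.

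Etv4 parted the 2 rearrangements. Its Hox13-positive level was 33.2 CPM in C57BL/6 wild type and 36.5 CPM in Dup, a ratio of 1.10 (0.920 to 1.32). It was 28.9 and 16.2 CPM in the G4 and Inv1 hindlimbs, a ratio of 0.559 (0.492 to 0.636), and 22.3 and 14.2 CPM in the forelimbs, a ratio of 0.635 (0.542 to 0.745). The Dup interval did not overlap either Inv1 interval. The C57BL/6 pair and the G4 and Inv1 libraries were deposited in separate count matrices. Strain, set of libraries and rearrangement therefore cannot be told apart in that contrast.

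Spry4 was lower in each mutant, at 10.6 CPM in Dup against 20.0 in its control, 17.2 against 25.7 in the Inv1 hindlimb and 20.0 against 26.1 in the Inv1 forelimb. The ratios were 0.527 (0.407 to 0.686), 0.671 (0.590 to 0.764) and 0.766 (0.666 to 0.882), but the C57BL/6 wild type and the Inv1 forelimb were both at 20.0 CPM. Il17rd was lower as well, by 0.683 (0.595 to 0.784), 0.862 (0.793 to 0.937) and 0.608 (0.557 to 0.663) times. The remaining inhibitors differed between the pairs: Spry1 was at 0.610 of its control in Dup, 0.881 in the hindlimb of Inv1 and 1.18 in its forelimb. Spry2 was at 0.94, 1.14 and 1.10, and Spred1 at 0.906, 1.02 and 0.699, in the same order.

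By the fold, 4 of 9 members were lower in Hox13-positive cells of Dup (Dusp6, Spry1, Spry4 and Etv5) and 0 higher, where 3.12% of measured genes were lower and 0.509% higher. Of the 9 in the hindlimb of Inv1, 3 were lower (Dusp6, Etv4 and Etv5) and 0 higher, where 0.369% of genes were lower and 1.13% higher. In the Inv1 forelimb 2 of 9 were lower (Etv4 and Il17rd) and 0 higher, but there 10.3% of all genes were lower and 0.574% higher, at a median log2 ratio of -0.17. With median-of-ratios scaling Etv4 was at 0.721 and Il17rd at 0.689 in that pair, and 0 members were past the fold.

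**Figure D3:**
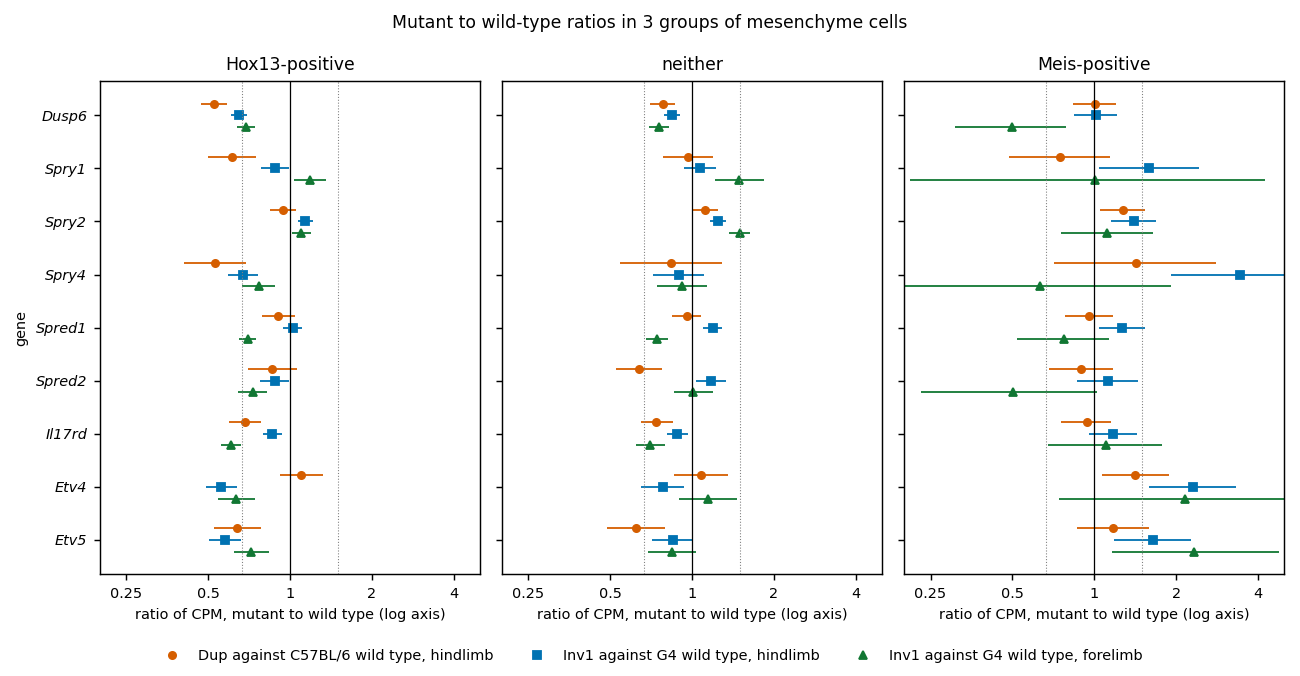
Ratio of mutant to wild type for each gene (log axis from 0.2 to 5, intervals running past its ends are clipped) in Hox13-positive, Meis-positive and remaining mesenchyme cells of the 3 pairs, with 95% counting intervals. In Hox13-positive cells Dusp6 sits at 0.526 to 0.688 and Etv5 at 0.577 to 0.720 in all 3 pairs, while Etv4 sits at 1.10 in Dup and at 0.559 and 0.635 in Inv1.

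Lower levels of Dusp6 were not confined to Hox13-positive cells. The remaining cells, with no UMI of the Hox13 or Meis genes, made up 37.2% to 50.1% of the mesenchyme. Dusp6 ratios there were 0.780 (0.701 to 0.868) in Dup, 0.842 (0.784 to 0.903) in the Inv1 hindlimb and 0.756 (0.694 to 0.824) in its forelimb. Etv5 ratios were 0.622 (0.486 to 0.796), 0.848 (0.711 to 1.01) and 0.840 (0.686 to 1.03) in the same order. In Meis-positive cells the picture differed by gene and by pair. Dusp6 was at 55.3 CPM in C57BL/6 wild type, 55.4 in Dup, 49.8 in the G4 hindlimb and 50.4 in the Inv1 hindlimb, ratios of 1.00 (0.835 to 1.20) and 1.01 (0.839 to 1.22). In the hindlimbs no proximal difference in Dusp6 was detectable beyond those intervals. In the forelimbs, on 94 and 49 Meis-positive cells, Dusp6 was at 115.4 CPM in G4 wild type and 57.4 CPM in Inv1, a ratio of 0.498 (0.307 to 0.784). In Dup 0 of 8 measured members were past the fold, where 1.48% of genes were higher and 1.59% lower. Among 7 measured members in the Inv1 hindlimb, 2 were higher and 0 lower, where 2.2% of genes were higher and 0.964% lower.

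These 2 genes were Etv4, at 18.9 CPM in Inv1 against 8.23 CPM in the G4 hindlimb, a ratio of 2.30 (1.59 to 3.33), and Etv5, at 20.4 against 12.4 CPM, a ratio of 1.64 (1.18 to 2.27). Spry4, below the limit of 10 CPM, was at 9.61 against 2.79 CPM, a ratio of 3.45 (1.92 to 6.34). The same 3 genes were lower, not higher, in the Hox13-positive cells of that Inv1 hindlimb. The G4 hindlimb was itself low for Etv4 beside the other wild-type hindlimb, at 8.23 against 19.1 CPM, a ratio of 0.432 (0.309 to 0.597), and the Inv1 level of 18.9 CPM was close to the C57BL/6 value. In the forelimbs, with few Meis-positive cells, Etv4 had a ratio of 2.16 (0.742 to 6.68) and Etv5 one of 2.32 (1.16 to 4.78).

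Set within 1 library, the ratio of Hox13-positive to Meis-positive cells does not depend on scaling between libraries. For Dusp6 it was 1.97 (1.71 to 2.27) in C57BL/6 wild type and 1.91 (1.71 to 2.15) in the G4 hindlimb, but 1.03 (0.884 to 1.21) in Dup and 1.23 (1.05 to 1.44) in the Inv1 hindlimb. For Etv5 it was 1.72 (1.34 to 2.22) and 2.08 (1.66 to 2.64) in the wild types, 0.941 (0.731 to 1.22) in Dup and 0.733 (0.567 to 0.958) in Inv1. For Spry4 it was 5.55 (3.44 to 9.37) and 9.20 (5.89 to 15.2) in the wild types against 2.06 (1.26 to 3.58) and 1.79 (1.26 to 2.63) in the mutants. In these 3 genes both mutant hindlimbs lay below both wild-type hindlimbs, as in every other member, though narrowly for Spred1 and Spred2. How many other genes share this order was not counted, so it cannot be read as particular to the members. The part of the differing makeup of the Hox13-positive cells was not tested. The forelimbs did not share this order for Dusp6, at 0.826 (0.658 to 1.05) in G4 wild type and 1.14 (0.776 to 1.75) in Inv1. Nor did they for Spry4, at 1.49 (0.840 to 2.90) and 1.81 (0.769 to 5.60). For Etv5 the forelimb ratios were 1.08 (0.643 to 1.95) and 0.334 (0.219 to 0.533).

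Il17rd behaved likewise on a smaller scale, with 1.48 and 1.42 in the wild types against 1.08 in Dup and 1.04 in Inv1. For Etv4 the wild types differed, at 1.74 (1.36 to 2.23) and 3.51 (2.68 to 4.68), with 1.35 (1.08 to 1.70) in Dup and 0.854 (0.657 to 1.13) in Inv1. Spry2 had a distal excess in each hindlimb library, at 2.06 and 2.02 in the wild types, 1.52 in Dup and 1.65 in Inv1. Spry1 had one too, at 2.36 and 3.60 in the wild types, 1.91 in Dup and 1.99 in Inv1. Spred2 showed none in any of the 4, at 1.00, 0.960, 1.06 and 0.833 in the order C57BL/6 wild type, Dup, G4 and Inv1, and Spred1 was at 1.20, 1.13, 1.36 and 1.10. In the forelimbs Spry2 was lower in Hox13-positive than in Meis-positive cells, at 0.694 (0.540 to 0.908) in G4 wild type and 0.684 (0.513 to 0.931) in Inv1. The share of all genes with both mutant hindlimbs below both wild-type hindlimbs is not given.

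**Figure D4:**
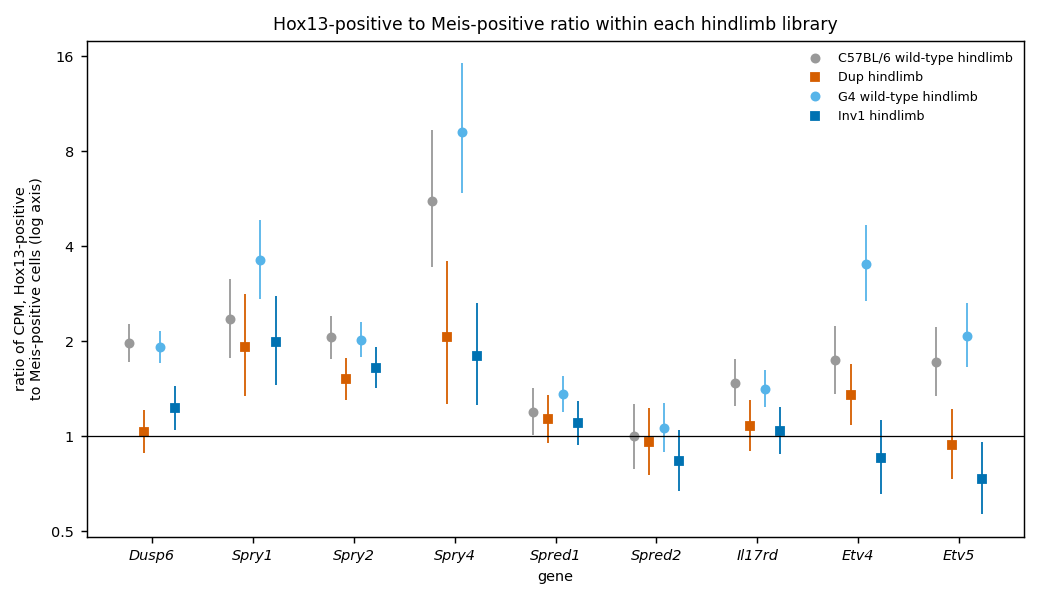
Ratio of the level in Hox13-positive to that in Meis-positive mesenchyme cells within each of the 4 hindlimb libraries (log axis), with 95% counting intervals. For Dusp6 the wild-type libraries lie at 1.97 and 1.91 and the mutants at 1.03 and 1.23; for Spry4 the wild types lie at 5.55 and 9.20 and the mutants at 2.06 and 1.79.

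As a sum, genes of enzymatic dissociation moved with some of these contrasts more than with others. The summed level of a list of 20 such genes, many of which ERK also induces, was 2934 CPM in Dup and 2295 CPM in C57BL/6 wild type in Hox13-positive cells, and 4007 and 2187 CPM in Meis-positive cells, where Dusp6 was at 55.4 and 55.3 CPM. In the G4 and Inv1 hindlimbs the sums were 2117 and 2257 CPM in Hox13-positive cells and 1847 and 1761 CPM in Meis-positive cells. Forelimb sums for G4 wild type and Inv1 were 2501 and 2605 CPM in Hox13-positive cells and 2033 and 2028 CPM in Meis-positive cells. Egr1 alone differed more than these sums. Its ratios to the control in Hox13-positive cells were 6.75 for Dup, 3.84 for the hindlimb of Inv1 and 2.86 for its forelimb. In Meis-positive cells they were 5.74, 1.45 and 1.88 in the same order. Fos ratios were 3.57, 1.20 and 1.71 in the former cells and 4.67, 0.921 and 1.51 in the latter. The part of these genes in the differences of the members was not tested. Fgf8 itself was read in mesenchyme at 0.783 to 5.44 CPM.

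Between wild-type libraries the members were not identical either. In whole mesenchyme, G4 against C57BL/6 hindlimb gave 1 member higher past the fold, Spry4 at 14.1 against 8.37 CPM with a ratio of 1.68 (1.42 to 2.01), and 0 lower, where 1.61% of genes were higher and 6.12% lower. The other 8 ratios lay between 0.821 and 1.10, with Dusp6 at 1.01 (0.951 to 1.07). The G4 forelimb against its hindlimb gave 2 members higher, Spred1 at 98.9 against 49.2 CPM with a ratio of 2.01 (1.90 to 2.13) and Spry4 at 22.8 against 14.1 CPM with 1.62 (1.44 to 1.81). In that contrast 31.2% of all genes were higher and 0.699% lower, at a median log2 ratio of 0.33, so 2 of 9 was no more than the background share. These contrasts share control libraries with the mutant pairs.

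In the dorso-ventral ectoderm, the sheet of surface cells on either side of the ridge, 4 members were lower in the Inv1 hindlimb, and Etv4 also in the Inv1 forelimb, by intervals below 1, on few cells. In Dup no member's interval lay to 1 side of 1. In the Inv1 hindlimb (95 cells against 64) Spry1 was at 59.0 against 104 CPM, a ratio of 0.565 (0.398 to 0.799), and Spry4 at 33.4 against 61.9 CPM, a ratio of 0.541 (0.338 to 0.856). Etv4 was at 30.5 against 56.7 CPM, a ratio of 0.538 (0.328 to 0.871), and Etv5 at 21.6 against 43.8 CPM, a ratio of 0.494 (0.275 to 0.869). These 4 of 9 were lower past the fold and 0 higher, where 8.86% of measured genes were lower and 9.6% higher, and all 4 intervals lay below 1. Dusp6 was at 37.4 against 42.5 CPM, a ratio of 0.879 (0.537 to 1.45).

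In the Inv1 forelimb (45 cells against 24) 4 of 9 members were lower past the fold and 0 higher, where 28.8% of genes were lower and 10.7% higher. Etv4 was at 17.6 against 71.4 CPM, a ratio of 0.246 (0.102 to 0.556), and was the single member whose interval lay below 1. The others were Spry4 at 0.639 (0.340 to 1.22), Etv5 at 0.654 (0.270 to 1.65) and Il17rd at 0.234 (0.0378 to 1.09). In Dup (62 cells against 11) 3 of 9 were lower and 0 higher, where 25.4% of genes were lower and 14.9% higher, and the intervals of all 3, Spry4, Etv5 and Il17rd, included 1. Etv4 was at 76.3 against 75.5 CPM there. Etv4 was thus lower in the dorso-ventral ectoderm of both Inv1 limbs and near its control in Dup, as in the Hox13-positive cells.

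The mesenchyme markers summed to 858 CPM in the 11 C57BL/6 wild-type ectoderm cells against 225 CPM in Dup, and to 113 and 153 CPM in the G4 and Inv1 hindlimbs. Of the dissociation genes, 0 of 9 measured were higher and 3 lower past the fold in the Inv1 hindlimb ectoderm, where 8.86% of all genes were lower. In the Inv1 forelimb ectoderm 0 of 12 were higher and 7 lower, where 28.8% of all genes were lower. Their part in the lower ectodermal levels was not tested.

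In the AER itself, the source of Fgf8, each member rested on 1 to 70 UMIs per library and little could be read. In the Inv1 hindlimb, where Fgf8 was at 0.00514 (0.00332 to 0.00762) of its control, Dusp6 was at 36.1 against 22.3 CPM, a ratio of 1.62 (0.645 to 4.85), and Spry1 at 81.3 against 104 CPM, a ratio of 0.781 (0.486 to 1.28). Spry2 was at 105 against 145 CPM, a ratio of 0.727 (0.485 to 1.11), and Etv4 at 52.7 against 63.2 CPM, a ratio of 0.834 (0.455 to 1.59). No member's interval in the AER of either Inv1 limb lay to 1 side of 1.

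Counts past the fold in the AER stand beside high background shares, since these classes are small. In Dup 4 of 9 members were higher and 0 lower, where 25.4% of genes were higher and 24.2% lower. Of these 4, Spred1 was at 109 against 45.8 CPM on 17 and 9 UMIs, a ratio of 2.38 (1.00 to 6.05), and the intervals of Spry1, Spred2 and Etv4 included 1. The hindlimb of Inv1 had 4 higher and 1 lower, where 18.7% of genes were higher and 15.5% lower. Its forelimb had 3 higher and 3 lower, where 21.1% were higher and 34.8% lower. Without the AER cells that carried mesenchyme markers, the Dup ratios of Spry1 and Spred1 were 1.08 and 1.33, within the fold, while Spry2 at 0.635 and Etv5 at 0.437 were then lower past it. With a gate on 2 or more of 6 AER markers in place of the deposited class, the Spry4 ratio in the Inv1 hindlimb was 0.525 where it had been 2.84, so no side can be given for Spry4 in the AER.

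**Figure D5:**
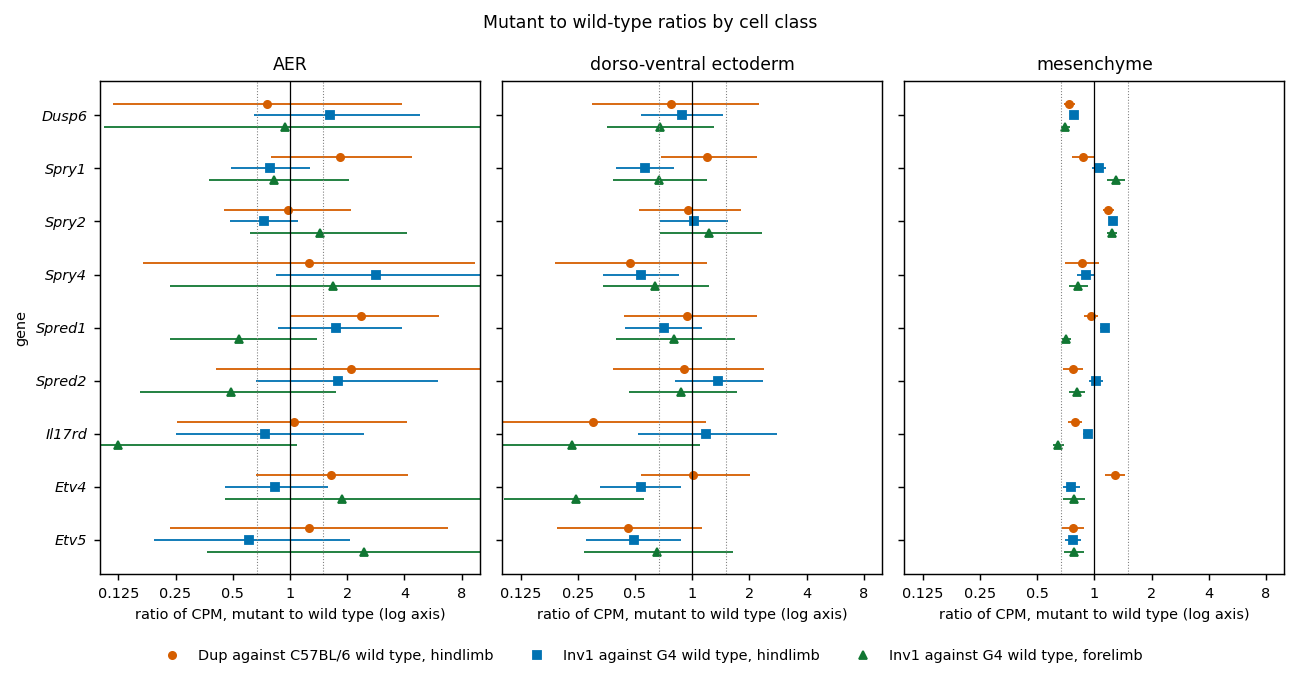
Ratio of mutant to wild type for each gene (log axis from 0.1 to 10, longer intervals clipped) in AER, dorso-ventral ectoderm and mesenchyme for the 3 pairs, with 95% counting intervals. Mesenchyme intervals are narrow (Dusp6, 0.703 to 0.779), AER intervals are wide, and in the dorso-ventral ectoderm of the Inv1 hindlimb Spry1, Spry4, Etv4 and Etv5 lie at 0.494 to 0.565.

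In muscle cells the values differed between the 2 limbs. Dusp6 in muscle was at 16.2 CPM in C57BL/6 wild type, 18.4 in Dup, and 16.1 and 18.7 in the G4 and Inv1 hindlimbs, with ratios of 1.14 (0.697 to 1.86) and 1.16 (0.824 to 1.64). In the forelimbs it was at 52.5 CPM in G4 wild type and 21.0 CPM in Inv1, a ratio of 0.400 (0.288 to 0.551). Of the 6 libraries, the G4 wild-type forelimb stood alone, and the other 5 lay between 16.1 and 21.0 CPM. Spry2 in muscle had ratios of 1.35 (1.02 to 1.80), 1.29 (1.05 to 1.58) and 1.45 (1.14 to 1.85) in Dup, Inv1 hindlimb and Inv1 forelimb, the same side as in mesenchyme.

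The wider FGF/ERK pathway was read from a list of 62 ligands, receptors, adaptors, cascade kinases and other induced or inhibitory genes, of which 56 were in both matrices. In mesenchyme, 4 of 37 measured genes were higher and 0 lower past the fold in Dup: Egr1 at a ratio of 4.44 (3.93 to 5.04), Fos at 3.19 (2.99 to 3.41), Sulf1, an enzyme that removes sulphate groups from heparan sulphate, at 1.81 (1.64 to 2.0), and Ier2 at 1.56 (1.51 to 1.61). In the Inv1 hindlimb 2 of 34 were higher and 0 lower, Egr1 at 3.22 (2.93 to 3.54) and Sulf1 at 1.98 (1.87 to 2.08). In the Inv1 forelimb 4 of 39 were higher and 10 lower, among them Egr1 at 3.28 (3.07 to 3.51) and Fgf10, the mesenchymal FGF that signals to the ridge, at 0.451 (0.394 to 0.515). The shares of all measured genes higher and lower in mesenchyme were 0.716% and 1.95% in Dup, 0.503% and 0.34% in the hindlimb of Inv1, and 0.417% and 9.23% in its forelimb. Egr1 and Dusp6, both induced by ERK, thus lay on opposite sides of the controls in the mesenchyme of all 3 pairs.

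In the AER, 11 genes of the pathway list were higher and 9 lower of 39 measured in Dup, 15 and 8 of 41 in the Inv1 hindlimb, and 7 and 18 of 40 in the Inv1 forelimb. Of all measured genes, 25.4% were higher and 24.2% lower in Dup, 18.7% and 15.5% in the hindlimb of Inv1, and 21.1% and 34.8% in its forelimb. In the Inv1 hindlimb Fgf9, another ridge FGF, was at 303 against 70.6 CPM, a ratio of 4.29 (2.67 to 7.27), and Phlda1 at 149 against 33.4 CPM, a ratio of 4.46 (2.26 to 10.0). Rasa1, a Ras inhibitor, was at 55.7 against 14.9 CPM, a ratio of 3.75 (1.35 to 14.5). In Dup, the heparan sulphate proteoglycan Sdc1 was at 19.2 against 107 CPM, on 3 and 21 UMIs, a ratio of 0.180 (0.0343 to 0.602).

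The 6 finer mesenchyme classes, each read separately in C57BL/6 wild type and in Dup, gave 11 units with 100 or more cells. Across these units, the genes whose levels most resembled those of 4 members were sought among 3161 genes, on the scale log2(CPM + 10). For Dusp6 they were Samd1, Psmd1 and Tspan6, with Pearson r of 0.91, 0.90 and 0.87, and Il17rd was the member closest to it, at 0.90. For Spry4 they were Mrps36, Mphosph8 and Cct2, at 0.93, 0.92 and 0.92, for Etv4 Serbp1, Ppp5c and Nhp2, at 0.89, 0.88 and 0.88, and for Etv5 Fbxw2, Tmem132a and Exosc7, at 0.84, 0.84 and 0.82. These values describe 11 points from only 2 libraries, in which classes of 1 library share its depth and dissociation, and are given without a test.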

How the data were processed

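Single-cell suspensions of limb buds had been processed with 10x Genomics 3′ chemistry. Per the labels and the study's methods, the authors counted UMIs with Cell Ranger 3 (builds mm9 and mm10 are named), removed doublets with Scrublet, integrated the libraries and named cell classes from clusters; the authors deposited whole-number UMI counts, not normalised. No further doublets were removed. The matrices (6944 cells of the C57BL/6 pair, 19542 of G4 and Inv1) held 0 mitochondrial rows, and totals were summed over 15668 genes in both. The annotation release and the use of strand are not given in the sources used here. The cell tables' 17 columns of other per-cell values were not used.

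Cells with more than 2000 detected genes were kept, UMIs were summed per library and class, and levels were scaled to CPM. Levels have exact Poisson intervals, shares of cells Clopper-Pearson intervals, and ratios of 2 levels intervals from the conditional binomial, all exact. Depth sets these intervals: 22660212 to 59403104 UMIs per library. Genes averaging at least 10 CPM in a pair counted as measured, and a ratio of 1.5 or more, or its inverse or less, was past the fold. Shares of cells were compared after thinning to 4000 UMIs. Promoter windows and motif matches come from RefSeq, GRCm38.p6. Code was checked on simulated counts (Python 3.11.15, numpy 2.4.6, scipy 1.17.1, pandas 2.3.3, matplotlib 3.10.9).

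All 9 members were named, pathway genes by a limit of 5 per pair and class past the fold (in AER only where the interval excluded 1), and the 3 most similar genes for Dusp6, Spry4, Etv4 and Etv5. Members and lists were chosen with earlier results of these data known. Alternatives were median-of-ratios scaling, limits of 1000 and 3000 detected genes, an average of single-cell CPM, a limit of 50 CPM, a marker gate for AER cells, the authors' second annotation of hindlimb cells, removal of AER cells with mesenchyme markers, thinning to 3000 UMIs and standardisation to finer classes. Mesenchyme ratios were also standardised to the wild-type shares of the Hox13 and Meis groups. The Hox13 and Meis groups, and the alternatives run on them and on autopod mesenchyme, were chosen after seeing the data. Tests between groups, and a joint test over the Inv1 limbs, were not run.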

Additional observations from a re-analysis of the deposited data

Results flagged for a closer look

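Spred1 in mesenchyme stood on opposite sides of the control in the 2 Inv1 limbs, at 1.14 times the G4 wild-type level in the hindlimb and 0.712 times in the forelimb. The difference between the limbs was not tested, since each limb has 1 library per genotype. With median-of-ratios scaling the values were 1.10 and 0.806. The G4 wild-type forelimb had the highest Spred1 level of the 6 mesenchymes, at 98.9 CPM against 49.2 to 70.4 CPM in the others.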

How the results depend on the processing

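The counts of members past the fold were small, and some moved with the processing. With a limit of 3000 detected genes, which left 2 to 19 AER cells per library, the count in AER of Dup went from 4 to 7 and that in mesenchyme of Dup from 0 to 1 (Etv4, at 1.57). The mean over cells gave 2 in AER of Dup and 0 in mesenchyme of the Inv1 forelimb, where the count was 1. Median-of-ratios scaling also gave 0 in mesenchyme of the Inv1 forelimb. The marker gate gave 3, and a limit of 50 CPM gave 1, in AER of the Inv1 hindlimb, where the count was 5. The limit of 50 CPM gave 2 in AER of the Inv1 forelimb, where it was 6. Ratios past the fold changed sides only in AER, each on an interval that included 1 or on few UMIs: under the marker gate, which takes in more ectoderm cells, Spry4 went from 2.84 to 0.525 in the Inv1 hindlimb and from 1.69 to 0.399 in the Inv1 forelimb, Etv4 from 1.88 to 0.792 in the Inv1 forelimb, and Spred2 from 2.10 to 0.957 in Dup, and at 3000 detected genes Spred2 in Dup was at 0. The cause of these movements was not tested.

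At 3000 detected genes the Etv5 ratio in Dup was 0.783 in autopod mesenchyme and 0.851 in Hox13-positive cells, within the fold, while Dusp6 was at 0.525 and 0.490. Standardised to the wild-type shares of the finer classes, the mesenchyme ratios of Dup were 0.619 for Spry4, 1.08 for Etv4 and 1.07 for Spry2. For the Inv1 pairs this was not run, as finer classes were used for the C57BL/6 pair only. A standardisation to the wild-type shares of the Hox13 and Meis groups was also run. It left 26 ratios and 3 counts of members the same by the fold, and 1 ratio moved. No paired analysis was possible because the groups compared share fewer than 2 replicate numbers, and with 1 library a group no replicate could be left out. Intervals cover counting error and not the spread between embryos.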
